A study of Homo sapiens with 6 samples.

Results

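Frame-preserving acceptor pairs are pairs of neighbouring 3′ splice sites (acceptors) that compete for the same 5′ splice site and lie a multiple of 3 nt apart. They were taken from splice junction tables of K562, an established line from a human chronic myeloid leukaemia. A pair was kept where both junctions were annotated and of a canonical-type motif, and where the acceptors were neighbours among the annotated ones and 12 to 99 nt apart. It also needed at least 20 uniquely mapped reads over its 2 junctions in every library and at least 10 reads pooled over the libraries on each acceptor. Of 242682 annotated junctions among 780566 in all, these rules gave 1922 pairs before the read minimums and 695 after them. They are part of a table of 2474 annotated neighbouring acceptor pairs 1 to 100 nt apart with the same read minimums, on which every test was run. The pairs were thus chosen by annotation, distance and read depth, and none of these rules compared the groups. The rules were, however, set with earlier results of these data known. The pooled minimum of 10 reads on an acceptor could also be met through a single group, so the choice was not blind to the difference between the groups.

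The 6 libraries were poly(A)+ RNA, 3 from K562 in which wild-type U2AF1 was knocked in (WT) and 3 from K562 labelled U2AF1 S34F. The comparison asks which of the paired acceptors is used when U2AF1 carries S34F. The labels name no clone or separate culture behind the replicates, so the p-values measure the spread between these libraries, which may be technical. Junction tables show neither the allele nor the protein, and the S34F label was not checked here. Positions are the last intron base at each acceptor, 1-based, in hg19, the build named in the submitters' processing notes. Genome sequence and genes of that build were not used here, so pairs are identified by position, the coding state of a segment and the bases at an acceptor were not analysed here, and cell type markers were not examined.

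U2AF1 is the small subunit of the U2AF heterodimer. Its partner U2AF2 binds the polypyrimidine tract, and U2AF1 contacts the AG at the end of the intron through zinc fingers, which helps to place the branch point recognition machinery. Serine 34 lies in the first zinc finger, and its replacement by phenylalanine, recurrent in myelodysplastic syndromes and acute myeloid leukaemia, is known to alter the preference for the base just before the AG. When the acceptor nearer the 5′ splice site (upstream) is used, the segment between the acceptors stays in the exon. When the downstream acceptor is used, the segment leaves with the intron. Where that segment is coding and carries no stop codon, a multiple of 3 nt adds or removes whole codons and leaves the downstream reading frame in place. The measure used here is the upstream share, the percentage of a pair's unique reads that ended at the upstream acceptor.

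The libraries held 18074706 to 39279169 uniquely mapped spliced reads; S34F replicate 3 was the deepest and S34F replicate 2 the shallowest. The median pair had 97 to 249 reads per library. Of the 695 pairs, 689 belonged to GT-AG introns, 5 to GC-AG introns and 1 to an AT-AC intron. They covered 690 different acceptor pairs and 686 different 5′ splice sites. The median distance between the acceptors was 39 nt, and the median intron up to the upstream acceptor was 715 nt long, with a range of 49 to 56203 nt. In wild type the upstream acceptor took most of the reads in 404 pairs and the downstream acceptor in 291. One acceptor dominated most pairs: in 381 the minor site took under 5% of the reads in wild type, and in only 112 did both sites take between 20% and 80%. The median SD between replicates was 1.59 percentage points in wild type and 1.61 in S34F over all the pairs, most of them near 0% or 100%, and 3.65 and 3.31 in the pairs called below.

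Which site dominated went with the distance. The upstream acceptor was the major one in 55 of 121 pairs at 12 to 20 nt and in 78 of 157 at 21 to 30 nt. In the range of 31 to 50 nt it led in 102 of 163 pairs, between 51 and 75 nt in 119 of 176, and from 76 to 99 nt in 50 of 78. The median wild-type upstream share was 39.4% in the shortest range and 90.5% at 51 to 75 nt.

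In S34F cells the choice moved towards the downstream acceptor in most pairs that changed. In bulk RNA, a shift in every cell and a larger shift in some of the cells cannot be told apart. A pair was called when its edgeR adjusted p, over all 2474 pairs of the table, was under 0.05 and the mean shares of the groups lay 10 percentage points or more apart. In all, 51 of the 695 pairs were called (7.34%), against 4.28% of all 2474 pairs tested. The upstream share fell in 44 of them, where the background for falls was 3.6%, and rose in 7, where it was 0.687%. Among the called pairs, 7 (6 falls and 1 rise) held an acceptor with under 10 reads in one group, which met the minimum only with the reads of the group where it was higher. The minimum itself favoured a difference in such pairs, and without them 38 falls and 6 rises are left. The median size of the called differences was 19.6 percentage points, with a range of 10.2 to 43.6. Without the minimum difference 90 pairs passed (background 7.88%), 75 lower and 15 higher in S34F, and 181 had an unadjusted p under 0.05 (background 18%). Pairs with an acceptor under 10 reads in one group were not taken out of these counts. The count depended on the tool: DESeq2 called 20 and limma on log2 odds called 6, all of them among the 51. Leaving out each library in turn gave 37 to 51 calls, fewest without S34F replicate 3, the deepest library. Of the 51 pairs, 29 were called in all 6 of those fits, and 27 of these were falls.

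**Figure D1:**
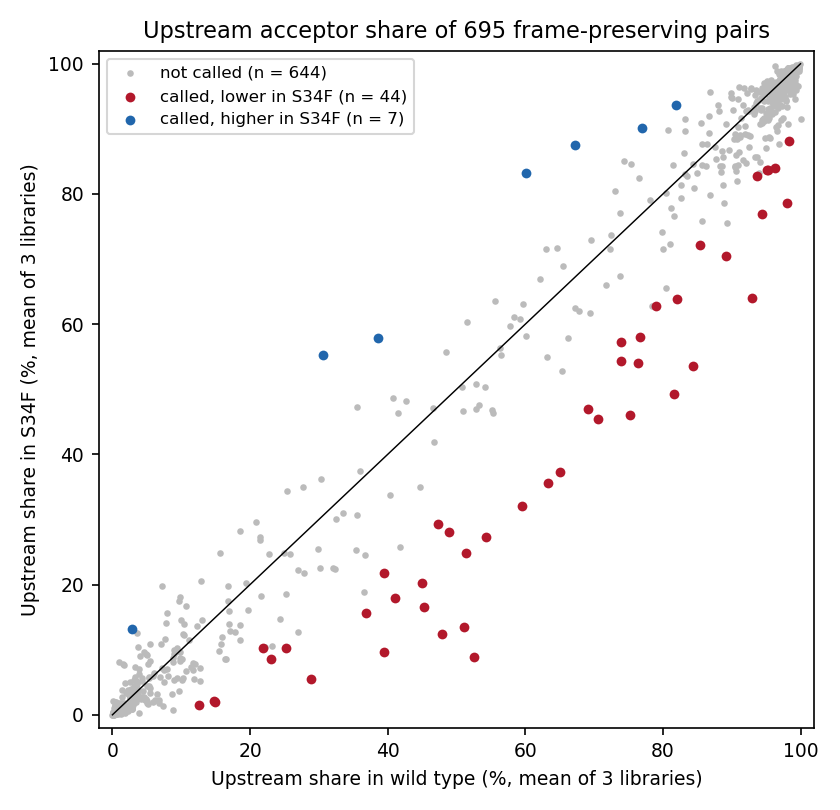
Mean upstream share of each of the 695 frame-preserving pairs in S34F against wild type, in percent over 3 libraries each; the line marks equal shares, red points are the 44 called falls and blue points the 7 called rises. Most called pairs lie below the line and in the middle of the range, while most other pairs lie close to the line near 0% or near 100%.

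Over all 695 pairs the shift was small. The median difference between S34F and wild type was -0.555 percentage points, beside -0.209 over all pairs tested, and the mean upstream share was lower in S34F in 437 pairs and higher in 258. The middle 80% of the differences ran from -8.32 to 3.36 percentage points. The median upstream share over the pairs was 75.8%, 80% and 79.04% in the wild-type libraries and 75%, 72.97% and 73.6% in the S34F libraries. All S34F libraries were lower than all wild-type libraries, though wild-type replicate 1 lay within 1 percentage point of S34F replicate 1. Pair by pair, all 3 S34F libraries were below all 3 wild-type libraries in 148 pairs (21.3%, background 15.1%) and above them in 52 (background 6.91%). The background includes 859 pairs at most 9 nt apart, of which 4.42% lay below in this way. Of 920 pairs 10 to 100 nt apart whose distance is not a multiple of 3, 20.3% did, close to the share of the frame-preserving pairs.

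Pairs in which both acceptors were well used made up most of the calls. Of the 112 pairs with a wild-type upstream share of 20% to 80%, 33 were called (29.5%). Of the other 583, 18 were (3.09%), and there the minimum of 10 percentage points leaves less room. The median difference was -6.56 percentage points for wild-type shares of 20% to 50% (53 pairs) and -4.84 for 50% to 80% (59 pairs). Under 5% it was -0.0126 (153 pairs) and over 95% -0.515 (228 pairs). Among the 44 falls, the upstream acceptor led in wild type in 28. In 11 of those the downstream acceptor became the major one in S34F, and in 17 the upstream acceptor remained so. In the other 16 falls the upstream acceptor was already the minor one. Libraries of the groups did not overlap in 50 of the 51 called pairs, as in 22% of all pairs tested. The exception, named for that, was a 54 nt pair on chromosome 16 (69167360 and 69167414), whose wild-type libraries had upstream shares of 61%, 82.6% and 77.97% and whose S34F libraries had 61.97%, 50% and 50.9%. There wild-type replicate 1 lay below S34F replicate 1.

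The falls are described first by distance, beginning with the largest ones at pairs 15 to 30 nt apart. On the plus strand of chromosome 6, acceptors at 88304244 and 88304259 lie 15 nt apart, a segment of 5 codons if it is coding. The upstream acceptor took 40.9%, 54.9% and 48% of the reads in wild type against 14.9%, 3.51% and 18.8% in S34F. The share fell from 47.9% ± 7 to 12.4% ± 7.96 (mean ± SD, n = 3 each), and no libraries overlapped. The odds of upstream use, from the edgeR fit, were lower in S34F (log2 odds ratio -2.66 with SE 0.46, adjusted p = 8.28e-05 by edgeR); such ratios below are likewise S34F over wild type. Most reads of this 5′ splice site went to acceptors outside the pair: 83.2% ± 0.427 in wild type and 79.2% ± 3.94 in S34F. The pair itself had 44 to 69 reads per library. The other 15 nt pair among the largest falls, on the plus strand of chromosome 19 (36593638 and 36593653), had shares of 90.9%, 79.4% and 82.9% in wild type against 53.5%, 44.8% and 62.3% in S34F (log2 odds ratio -2.0 with SE 0.44, adjusted p = 0.00161 by edgeR). It went from a dominant upstream acceptor to nearly equal use.

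On the plus strand of chromosome 1, acceptors 21 nt apart (155279833 and 155279854) had an upstream share that fell from 51.4% ± 3.61 to 24.9% ± 2.2 (log2 odds ratio -1.68 with SE 0.19, adjusted p = 5.63e-08 by edgeR). Its wild-type libraries had 53.4%, 53.6% and 47.3% and its S34F libraries 22.99%, 24.3% and 27.3%. With 385 to 876 reads per library it was the most deeply read of the 14 largest falls. The 30 nt pair on the plus strand of the same chromosome (29016585 and 29016615) had 44.4%, 46% and 45.5% in wild type against 13.8%, 18.2% and 17.6% in S34F (log2 odds ratio -2.02 with SE 0.45, adjusted p = 0.00176 by edgeR). Its wild-type libraries lay within 2 percentage points of each other, on 22 to 74 reads per library. Of these 4 pairs, DESeq2 ended the call of the 30 nt pair, which limma kept, and limma ended those of the other 3, which DESeq2 kept.

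At 33 to 51 nt apart were 6 of the 14 largest falls. The largest fall of all was on the plus strand of chromosome X, where 147030202 lies 51 nt upstream of 147030253 and the intron runs from the 5′ splice site at 147027137. The upstream acceptor took 47.8%, 54.5% and 55.2% of the reads in wild type against 7.02%, 12.5% and 7.14% in S34F, on 22 to 84 reads per library. The groups are far apart, with a difference of 43.6 percentage points (log2 odds ratio -3.65 with SE 0.52, adjusted p = 3.87e-06 by edgeR). Reads of that 5′ splice site outside the pair were 16.2% ± 6 in wild type and 5.39% ± 1.29 in S34F. The pair on the plus strand of chromosome 5 (56545235 and 56545280, 45 nt apart) was mostly upstream in wild type, with 88.9%, 95.7% and 94.1%, and had 64.95%, 68.1% and 59.03% in S34F (log2 odds ratio -2.93 with SE 0.32, adjusted p = 2.85e-08 by edgeR). Both of these pairs passed with edgeR, DESeq2 and limma.

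The most deeply read pair of this distance range, on the minus strand of chromosome 2 (86398469 and 86398436, 33 nt apart), had 276 to 712 reads per library and fell from 54.3% ± 2.34 to 27.2% ± 2.73 (log2 odds ratio -1.67 with SE 0.19, adjusted p = 7.42e-08 by edgeR). Its libraries had 51.7%, 56.2% and 55% in wild type against 30.4%, 26.1% and 25.3% in S34F. In the 51 nt pair on the minus strand of chromosome 18 (9595152 and 9595101) the wild-type libraries were spread, at 28.6%, 33.98% and 55.95%, and the S34F libraries were close together, at 7.92%, 8.97% and 11.9% (log2 odds ratio -2.49 with SE 0.38, adjusted p = 1.72e-05 by edgeR). The chromosome 12 pair (120156667 and 120156622, 45 nt apart, minus strand) showed the same kind of spread, with 70%, 48.5% and 34.8% in wild type against 17.6%, 11.5% and 11.1% in S34F (log2 odds ratio -2.81 with SE 0.54, adjusted p = 3.33e-04 by edgeR). The largest wild-type SD of the 14 falls, 17.8 percentage points, belonged to that pair. A 51 nt pair on the minus strand of chromosome 1 (47728786 and 47728735) had 50%, 68.7% and 71.4% in wild type against 36.5%, 33.8% and 36.5% in S34F (log2 odds ratio -1.58 with SE 0.35, adjusted p = 0.00161 by edgeR). Limma ended the calls of all 4 pairs of this paragraph, and DESeq2 that of the 51 nt pair on chromosome 1.

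The remaining 4 of the largest falls had acceptors 60 to 99 nt apart. On the plus strand of chromosome 1, acceptors at 150990942 and 150991032 lie 90 nt apart, a segment of 30 codons if coding. Wild-type libraries had 84.6%, 82.1% and 78.4% at the upstream acceptor and S34F libraries 60%, 47.6% and 40%, on 21 to 52 reads per library (log2 odds ratio -2.24 with SE 0.49, adjusted p = 0.00177 by edgeR). Reads of that 5′ splice site to acceptors outside the pair were 8.04% ± 4.91 in wild type and 32.2% ± 8.22 in S34F, and that difference was not tested. The 60 nt pair on the minus strand of chromosome 1 (155638569 and 155638509) had 54.97%, 68.4% and 71.5% in wild type against 41.3%, 38.1% and 32.6% in S34F (log2 odds ratio -1.64 with SE 0.28, adjusted p = 5.77e-05 by edgeR).

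On chromosome 7, an 81 nt pair on the minus strand (139299240 and 139299159) had 49.3%, 67.2% and 62.1% in wild type against 24.7%, 29.8% and 41.5% in S34F (log2 odds ratio -1.56 with SE 0.36, adjusted p = 0.00262 by edgeR). A 99 nt pair on the plus strand (99949785 and 99949884) had 65.7%, 74.2% and 85.7% in wild type against 48.9%, 52.2% and 36.9% in S34F (log2 odds ratio -1.85 with SE 0.47, adjusted p = 0.00685 by edgeR). The latter lost its call without S34F replicate 3, where its adjusted p was 0.143, the highest of the leave-one-out fits, in which the lowest was 0.00564. It was the only one of the 14 falls to lose its call in such a fit. Limma ended the calls of all 4 pairs 60 to 99 nt apart, and DESeq2 those of all but the 60 nt pair. Over the 14 falls, limma's adjusted p ran from 0.0227 to 0.116.

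**Figure D2:**
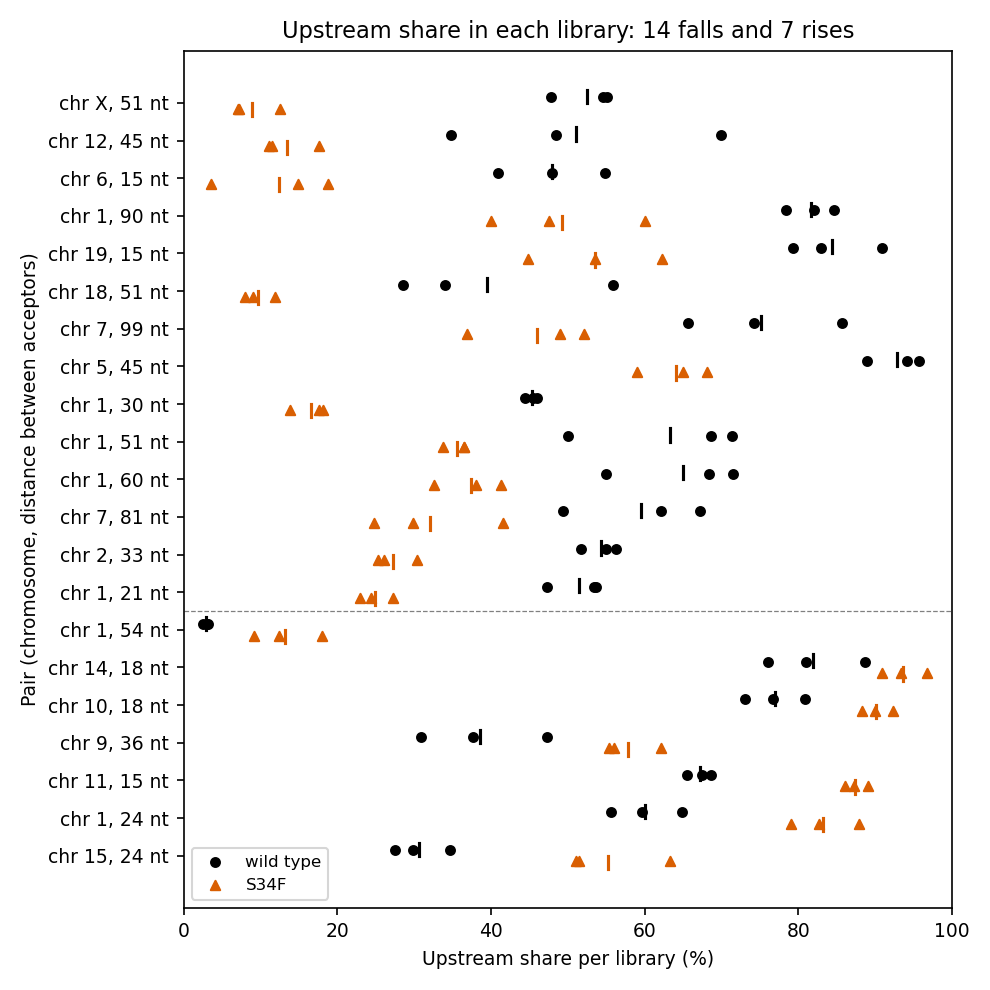
Upstream share in each library, in percent, for the 14 largest called falls (above the dashed line) and the 7 called rises (below it), each named by chromosome and distance between the acceptors; black circles are wild-type libraries, orange triangles S34F libraries and vertical ticks the group means (n = 3). In all 21 pairs the circles and triangles do not overlap, and the wild-type libraries of the chromosome 12 pair spread from 34.8% to 70%.

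The other 30 called falls ranged from 10.2 to 25.1 percentage points at distances of 12 to 93 nt. The pairs named next were chosen after their values were seen. The smallest adjusted p of all 695 pairs belonged to a 45 nt pair on the minus strand of chromosome 1 (67890006 and 67889961), with 1711 to 4717 reads per library. Its upstream acceptor took 22.01%, 22.8% and 24.4% in wild type against 9.12%, 8.83% and 7.74% in S34F (log2 odds ratio -1.69 with SE 0.16, adjusted p = 9.38e-10 by edgeR), with no overlap between the groups. In 3 pairs the upstream acceptor was a minor site in wild type and nearly unused in S34F. Each met the minimum of 10 reads at that acceptor only through wild type, so their values are a description and support no fall. The chromosome 12 pair (108938309 and 108938255, 54 nt apart) went from 14.9% ± 4.73 to 2.02% ± 1.7, with 43 upstream reads in wild type and 4 in S34F. The chromosome 17 pair (73624906 and 73624843, 63 nt apart) went from 14.8% ± 2.04 to 2.17% ± 0.864, with 18 upstream reads in wild type and 3 in S34F. The 21 nt pair on chromosome 1 (212985568 and 212985589) went from 12.6% ± 4.38 to 1.58% ± 2.15, with 45 upstream reads in wild type and 6 in S34F.

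Others of these falls were shifts between sites that were both in use. A chromosome 15 pair (59192137 and 59192083, 54 nt apart) had 77.6%, 67.1% and 67.01% in wild type against 40.8%, 56.1% and 39.4% in S34F (edgeR adjusted p = 3.37e-04), and the downstream acceptor came to lead on average. A 21 nt pair on chromosome 9 (140637822 and 140637843) went from 45.05% ± 3.48 to 20.2% ± 2.87 (edgeR adjusted p = 1.34e-04). On chromosome 21 a 66 nt pair (33057554 and 33057488, 146 to 785 reads per library) went from 76.4% ± 9.58 to 54.1% ± 3.15 (edgeR adjusted p = 1.06e-04), with the upstream acceptor still ahead. Short segments were among them too. Both 12 nt pairs called, on chromosomes 6 (33163244 and 33163232) and 12 (6675503 and 6675491), fell, the first from 39.4% ± 9.4 to 21.8% ± 3.81 (edgeR adjusted p = 0.023) and the second from 73.9% ± 2.12 to 57.3% ± 5.56 (edgeR adjusted p = 0.00849). The 15 nt pairs on chromosome 3 fell at different levels: one (133371474 and 133371459) from 76.7% ± 1.77 to 57.96% ± 3.23 (edgeR adjusted p = 0.00524), and the other (25686962 and 25686947) from 21.95% ± 3.83 to 10.2% ± 0.898 (edgeR adjusted p = 0.0261).

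The opposite case was a downstream acceptor hardly used in wild type. The chromosome 11 pair (130776029 and 130775978, 51 nt apart) had upstream shares of 100%, 96.5% and 97.6% in wild type against 84.4%, 73.1% and 78.2% in S34F, from 3 downstream reads in wild type and 50 in S34F. On chromosome 16, a 57 nt pair (731151 and 731208) went from 98.3% ± 0.822 to 88.1% ± 2.69, from 9 downstream reads in wild type and 74 in S34F. Both met the minimum at the downstream acceptor only through S34F, so their values too are a description. A 75 nt pair on chromosome 2 (216237099 and 216237024) went from 96.3% ± 0.695 to 83.9% ± 1.45 (edgeR adjusted p = 6.28e-07) on 79 to 827 reads per library. The 39 nt pair on chromosome 1 (40211046 and 40211085) went from 94.3% ± 3.2 to 76.96% ± 3.62 (edgeR adjusted p = 1.13e-06), and the 93 nt pair on chromosome 7 (1192861 and 1192768), the widest of these 30, from 95.3% ± 3.17 to 83.6% ± 0.734 (edgeR adjusted p = 0.00524). In each of these the upstream acceptor stayed the major one, and no libraries overlapped.

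The upstream share rose in 7 pairs, 5 of them 24 nt or less apart. The best supported was a 15 nt pair on the minus strand of chromosome 11 (85693047 and 85693032), where 67.4%, 68.7% and 65.6% of the reads ended upstream in wild type against 89.1%, 86.04% and 87.3% in S34F (log2 odds ratio 1.78 with SE 0.20, adjusted p = 4.82e-08 by edgeR). With 308 to 965 reads per library, the replicates of each group lay within 4 percentage points of each other. The 24 nt pair on the minus strand of chromosome 1 (78187611 and 78187587), at the end of an intron of 98 nt, had 59.7%, 55.6% and 64.9% in wild type against 82.8%, 79.1% and 87.9% in S34F (log2 odds ratio 1.80 with SE 0.33, adjusted p = 1.59e-04 by edgeR). These 2 pairs kept their calls in every leave-one-out fit and with DESeq2, and lost them with limma (adjusted p of 0.055 and 0.0706).

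The largest rise was in the other 24 nt pair, on the minus strand of chromosome 15 (63967317 and 63967293), with 27.5%, 29.8% and 34.6% in wild type against 51.02%, 63.3% and 51.5% in S34F (log2 odds ratio 1.43 with SE 0.40, adjusted p = 0.0169 by edgeR). Most reads ended downstream in wild type and upstream in S34F. The chromosome 9 pair (135985109 and 135985073, 36 nt apart) also changed its major site, with 37.7%, 47.3% and 30.9% in wild type against 55.4%, 56% and 62.1% in S34F (log2 odds ratio 1.10 with SE 0.31, adjusted p = 0.02 by edgeR). Both 18 nt pairs were mostly upstream already. On chromosome 10 (13160887 and 13160905) the libraries had 76.7%, 80.95% and 73.1% in wild type against 88.3%, 92.3% and 89.96% in S34F (edgeR adjusted p = 0.0249). On chromosome 14 (59953430 and 59953448) they had 88.7%, 81.1% and 76.1% in the wild-type and 93.4%, 90.9% and 96.8% in the S34F libraries (edgeR adjusted p = 0.0341). The 54 nt pair on chromosome 1 (247323170 and 247323116) went from 2.91% ± 0.337 to 13.1% ± 4.51, from 7 upstream reads in wild type and 23 in S34F. It met the minimum at that acceptor only through S34F, so its values are a description and support no rise.

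Each of these 5 rises lost its call with DESeq2, with limma and in at least 1 leave-one-out fit. The chromosome 15 pair lost it without wild-type replicate 1, S34F replicate 2 or S34F replicate 3 (adjusted p 0.0226 to 0.0628 over the 6 fits). For the chromosome 9 pair it was without wild-type replicate 1, wild-type replicate 3 or S34F replicate 3 (0.00571 to 0.159). The chromosome 10 pair lost it without wild-type replicate 1 or 3 or S34F replicate 2 or 3 (0.0276 to 0.201), and the chromosome 14 pair without wild-type replicate 2 or 3 or S34F replicate 1 or 3 (0.0119 to 0.269). The 54 nt pair on chromosome 1 lost it without S34F replicate 1.

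The difference was then set against the distance. The median difference was 0.0898 percentage points at 12 to 20 nt and -0.0283 at 21 to 30 nt. Farther apart it was -0.821 (31 to 50 nt), -1.05 (51 to 75 nt) and -1.23 (76 to 99 nt). The mean share was lower in S34F in 57 of 121 pairs at 12 to 20 nt and in 131 of 176 at 51 to 75 nt. In the shortest range 6 pairs fell and 3 rose, at 21 to 30 nt 6 and 2, and beyond 30 nt 32 and 2. The ranges hold different numbers of pairs. In order of rising distance, the ranges whose medians are given here had 7.44%, 5.1%, 7.98%, 9.66% and 5.13% of their pairs called. The rate of calls thus did not rise steadily with distance. The ranges were set after earlier results by distance were known. The wild-type shares also differ between these ranges, as given above, and their part in this pattern was not tested.

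**Figure D3:**
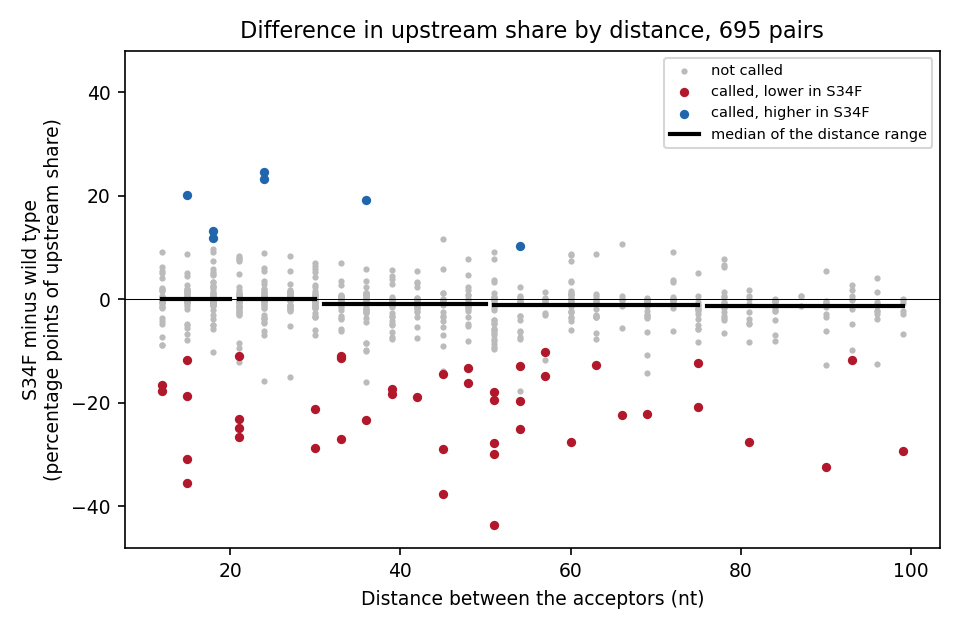
Difference in mean upstream share, S34F minus wild type in percentage points, against the distance between the acceptors in nt for the 695 pairs; red and blue points are called pairs, grey points the others, and black bars the medians of 5 distance ranges. Of the 7 called rises, 5 lie at 24 nt or less. The medians are near 0 up to 30 nt and between -1.23 and -0.821 beyond.

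The same count was made for pairs whose distance is not a multiple of 3. Of 920 annotated frame-shifting pairs 10 to 100 nt apart, 55 were called (5.98%), 45 lower and 10 higher in S34F, with a median difference of -0.406 percentage points. The frame-preserving pairs had 7.34% called and a median of -0.555. An unadjusted edgeR p under 0.05 was found in 25.4% of the frame-shifting and 26% of the frame-preserving pairs. The mean upstream share was lower in S34F in 62.5% and 62.9% of them. Called differences reached 30.8 percentage points among the frame-shifting pairs and 43.6 among the frame-preserving ones. At 51 to 75 nt the medians were -0.847 for frame-shifting and -1.05 for frame-preserving pairs. The rises were placed differently. Of the 10 frame-shifting ones, 7 had a distance of 31 to 50 nt and 2 had one of 20 nt or less. Of the 7 frame-preserving ones, 5 had a distance of 24 nt or less. The difference between both kinds was not tested. Among 859 pairs at most 9 nt apart, edgeR called 0, with 31 at an unadjusted p under 0.05, and DESeq2 and limma also called 0, with 4 and 32.

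Reads at each acceptor are described for both sides of the called pairs. They were scaled to 1000000 unique spliced reads of a library (CPM), and in bulk RNA they also follow the level of the transcript. Among the 44 falls, the group mean at the upstream acceptor was lower in S34F in 43 and at the downstream acceptor higher in 41. All S34F libraries were below all wild-type libraries at the upstream acceptor in 32 of them, and above at the downstream acceptor in 28. The median log2 ratio of the group means, S34F over wild type, was -0.77 upstream, 0.76 downstream and -0.01 for the pair as a whole, beside 0.08 for the whole pair over all 695 pairs. Since the shares chose these pairs, the upstream and downstream counts and ratios are a description. No such count at single acceptors was made over all pairs tested. In the 7 rises the median log2 ratio was 1.13 upstream, -0.80 downstream and -0.03 for the pair. The 44 falls and 7 rises include the 6 falls and 1 rise with an acceptor under 10 reads in 1 group.

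Single pairs differed in how the reads were redistributed. At the chromosome X pair, upstream reads went from 0.58 ± 0.214 to 0.163 ± 0.00921 CPM and downstream reads from 0.515 ± 0.14 to 1.8 ± 0.571, so the downstream site gained more than the upstream site lost. In the 90 nt pair on chromosome 1 the upstream site went from 1.5 ± 0.223 to 0.499 ± 0.173 CPM and the downstream site from 0.336 ± 0.0686 to 0.498 ± 0.0974, mostly a loss upstream. Reads of the chromosome 2 pair shifted from one site to the other, which went from 10.4 ± 1.6 to 5.17 ± 1.57 CPM upstream and from 8.71 ± 0.623 to 13.6 ± 2.33 downstream. At the chromosome 10 rise the reads of the whole pair were higher in S34F: upstream reads went from 1.31 ± 0.64 to 6.03 ± 1.89 and downstream reads from 0.425 ± 0.282 to 0.689 ± 0.346.

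**Figure D4:**
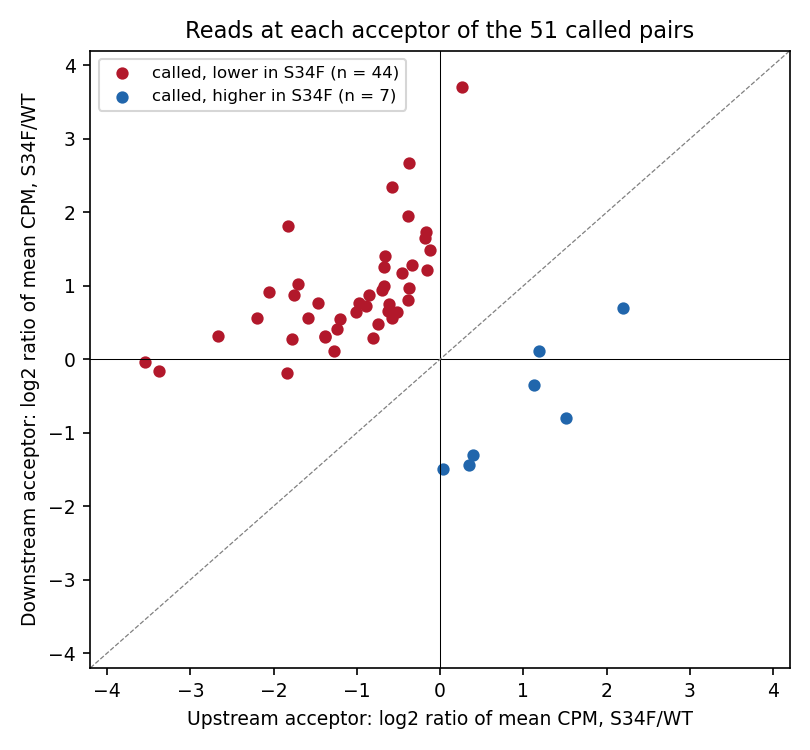
Log2 ratio of the mean CPM, S34F over wild type, at the downstream acceptor against that at the upstream acceptor for the 51 called pairs; on the dashed line both sites change equally. Red points (falls) lie mostly left of 0 and above 0, with fewer upstream and more downstream reads in S34F, and blue points (rises) lie right of 0.

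In a few cases the same acceptors could be read from other 5′ splice sites. For 5 called pairs, all falls, junctions from other 5′ splice sites to the same 2 acceptors had at least 10 reads in every library, and in all 5 the upstream share from those sites was also lower on average in S34F. These are other reads of the same libraries, not other samples, and were not tested. The same count for pairs not called is not given here, and over all 695 pairs the pair's own mean share was lower in S34F in 437. For the 21 nt pair on chromosome 1 the reads from other 5′ splice sites gave 67.2% ± 0.577 in wild type and 44.8% ± 8.41 in S34F. At a 51 nt pair on the minus strand of chromosome X (102933580 and 102933529), itself 47.3% ± 2.35 in wild type and 29.4% ± 3.31 in S34F, they gave 58.1% ± 4.22 in wild type and 41.1% ± 4.8 in S34F. In both, the groups' libraries did not overlap, nor did they in the next. A chromosome 22 pair (31368840 and 31368909) gave 85.3% ± 15.9 in wild type and 61.1% ± 1.38 in S34F from other sites, and a chromosome 6 pair (13327196 and 13327139) gave 33.8% ± 10.01 in wild type and 24.2% ± 5.6 in S34F. The second chromosome 6 junction set of that pair, from the 5′ splice site at 13328687, was a frame-preserving pair of its own and went from 22.2% to 10.4% without passing (edgeR adjusted p = 0.223). In the chromosome 15 pair (49429656 and 49429635) the other sites used the downstream acceptor almost alone in both groups, with 6.34% ± 2.08 in wild type and 4.17% ± 3.61 in S34F. From the other sites, libraries of the groups overlapped in this chromosome 15 pair and in the chromosome 6 pair.

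A further 39 pairs passed the adjusted p with a difference under 10 percentage points, 31 lower and 8 higher in S34F. Both counts include pairs that met the minimum of 10 reads at an acceptor only through the group where it was higher. Of the 39, 24 had a minor site that took under 5% of the reads in wild type. The most deeply read was a 99 nt pair on chromosome 3 (12881841 and 12881742), with 11976 to 20728 reads per library. Its upstream acceptor took 0.231%, 0.314% and 0.295% in wild type against 0.0839%, 0.0752% and 0.0868% in S34F, a rare site whose libraries did not overlap (log2 odds ratio -1.73 with SE 0.27, adjusted p = 2.18e-05 by edgeR). At a chromosome 19 pair, chosen after its values were seen (651916 and 651856, 60 nt apart), the share went from 7.3% ± 1.77 to 1.34% ± 0.859, from 34 upstream reads in wild type and 8 in S34F, so it met the minimum there only through wild type. Conversely, 16 pairs differed by 10 percentage points or more without passing, 13 lower and 3 higher, with edgeR adjusted p from 0.052 to 0.342.

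Pairs that did not pass give the scale. The 3 pairs with the most reads were nearly single-site in both groups. One on chromosome 3 (12881084 and 12881030, 21754 to 37556 reads per library) had a mean upstream share of 0.00655% ± 0.00578 in wild type and 0.00628% ± 0.00563 in S34F. The chromosome 11 pair (8705507 and 8705552) had 0.0162% ± 0.0147 in wild type and 0.0105% ± 0.00774 in S34F, and the chromosome 4 pair (39456565 and 39456550) had 99.8% ± 0.0601 in wild type and 99.8% ± 0.0238 in S34F. Among the deepest 12 nt pairs, one on chromosome 19 (10793800 and 10793812) used both sites about equally, with 51.2%, 46.6% and 41.9% in wild type against 46.2%, 47.8% and 47.2% in S34F (edgeR adjusted p = 0.973). Its S34F libraries lay inside the range of the wild-type ones. The other 12 nt pairs, on chromosomes 12 (57108472 and 57108460) and 17 (30678804 and 30678816), differed by 0.35 and 0.0929 percentage points. Both other 99 nt pairs with the most reads, on chromosomes 19 (49949952 and 49949853) and 14 (105239430 and 105239331), differed by -0.783 and -0.0388. None of the pairs of this paragraph passed the edgeR test.

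The intron length of called pairs was greater, with a median of 1542 nt against 715 nt over all frame-preserving pairs, a difference that was not tested. Of 140 pairs at introns of at most 200 nt, 6 were called (4.29%), and of 555 at longer introns 45 were (8.11%). At the edge of the read minimum, the pairs just inside had 20 reads in their shallowest library and those just outside 19. Inside, a chromosome 2 pair (201756640 and 201756691) had 55.6% ± 3.83 in wild type and 63.5% ± 9.98 in S34F, and a chromosome 17 pair (45892074 and 45891981) had 27% ± 8.19 in wild type and 22.3% ± 3.3 in S34F. Outside, a chromosome 20 pair (37163716 and 37163728) had 68.1% ± 13.4 in wild type and 51.2% ± 15.3 in S34F, and a chromosome 19 pair (11289148 and 11289124) had 7.82% ± 4.81 in wild type and 9.16% ± 8.19 in S34F. Counted within wild type, one acceptor had under 10 reads in 192 of all the pairs (4 of them called). Counted within S34F, this held for 147 (3 called), and some pairs are in both counts.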

How the data were processed

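Splice junctions were counted in 6 poly(A)+ K562 libraries, 3 WT and 3 S34F. The deposited tables hold raw counts of uniquely mapped and of multi-mapped reads per junction, with strand and motif codes, annotation status and largest overhang, per the file layout of STAR, the aligner named with hg19 in the submitters' processing notes. The STAR version, the annotation and the junction filters are not given in the sources used here. The members, distance ranges and tests were chosen with earlier results of these data known.

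The tables were joined on position, with a missing junction as 0. Counts were fitted with edgeR 4.0.16 (R 4.3.3; quasi-likelihood F-test, robust, legacy mode) on 2 counts per library and pair, with an intercept per library, the site, and the interaction of site with S34F, which is the change in log2 odds. The library intercept takes up depth. SE was the size of the coefficient over the root of its F statistic. Adjustment was by Benjamini-Hochberg over 2474 pairs. DESeq2 1.42.0 and limma 3.58.1 (log2 odds, 0.5 added to each count) were alternatives, with read minimums, multi-mapped reads, overhang, the definition of neighbours, a replicate block and each library left out. Other tools were Python 3.11.15, pandas 2.3.3 and numpy 2.4.6. On simulated counts for all 2474 pairs, edgeR called 14% of pairs changed by 1 in log2 odds, 43% of those changed by 2, and 0.044% of unchanged ones. These counts were drawn with the dispersions that edgeR had fitted and were tested with the same model. They therefore cannot give the rate of false calls in the real data. Replicates of a group differed by more than sampling noise, and each was counted. Pairs named are the 14 largest called falls, up to 8 called rises, the 3 deepest pairs, the 3 deepest each at 12 and 99 nt, and 2 on each side of the read minimum. All other pairs named were chosen after their values were seen. The labels name no molecular identifiers, so reads are not independent molecules.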

Additional observations from a re-analysis of the deposited data

Results flagged for a closer look

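Unannotated junctions, whether their acceptor was itself annotated or not, lie outside the comparisons above. At the 5′ splice sites of the frame-preserving pairs they took 0.405%, 0.338% and 0.382% of the unique reads in the wild-type libraries and 0.434%, 0.438% and 0.538% in the S34F libraries. The means were 0.375% ± 0.0344 in wild type and 0.47% ± 0.0592 in S34F (SD, n = 3 each). All S34F libraries were above all wild-type libraries, by at least 0.0282 percentage points. The highest value belonged to the deepest library, S34F replicate 3, while the shallowest, S34F replicate 2, had 0.438%. The part of depth in this difference was not tested.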

How the results depend on the processing

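The count of 51 called pairs stayed within 1.5 times under the other read, neighbour and table settings run: 64 with a mean of 20 reads, 57 with no minimum, 51 when multi-mapped reads were added, 53 at an overhang of 20 nt or more, 52 and 40 with other neighbours, and 39 when fitted with unannotated pairs. It was 20 with DESeq2, 6 with limma, 33 with at least 50 reads (fewer pairs tested), 90 with no minimum difference and 25 with 20 percentage points. Leaving out each library gave 37 to 51 calls. Falls outnumbered rises under every setting run. All 51 called pairs had an unadjusted p under 0.05 with DESeq2 and with limma.

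The median difference of -0.555 percentage points was -0.42 with 50 reads, -0.279 with no minimum, -0.637 with the overhang minimum, -0.488 with pooled reads, and -0.642 to -0.541 with a library left out; the cause was not tested. Of 508 values of the 32 named pairs under alternatives, 49 ended a call and 0 turned the direction of a called pair. The sign changed in 6 values of 5 pairs that were not called, from differences near 0: with multi-mapped reads, to -0.0469 (chromosome 4, 39456565), 0.00797 (chromosome 11, 8705507) and 0.102 (chromosome 14, 105239430). With a library left out the last of these ranged from -0.383 to 0.286, a chromosome 3 pair (12881084) from -0.00354 to 0.00288 and a chromosome 19 pair (10793800) from -1.87 to 2.78 percentage points.

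Replicate numbers are shared by the groups in the labels. With the number as a replicate block, 47 pairs were called. Deviations of same-numbered libraries correlated at -0.066, -0.039 and -0.029 over the 695 pairs. No wild-type library correlated best with the S34F library of its own number. The best correlations were as weak, at 0.056, 0.029 and 0.05, so they cannot show whether same-numbered libraries were prepared together. At 20 reads, a share has a wide counting error, which limits the pairs of lowest depth.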

Other observations

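The 5 GC-AG pairs and the 1 AT-AC pair, the introns with uncommon 5′ splice sites, held no called pair. A GC-AG pair on chromosome 16 (57789701 and 57789752) had an upstream share of 15.6% ± 4.99 in wild type and 24.8% ± 6.23 in S34F (edgeR adjusted p = 0.228). On chromosome 6, a GC-AG pair (36177977 and 36177992) had 16.5% ± 5.01 in wild type and 8.61% ± 2.21 in S34F (edgeR adjusted p = 0.249). The chromosome 15 GC-AG pair (37187463 and 37187442) had 32.1% ± 0.308 in wild type and 22.6% ± 12.6 in S34F (edgeR adjusted p = 0.682), with a spread in S34F wider than the difference. The remaining GC-AG pairs, on chromosomes 1 and 18, differed by -2.38 and 0.432 percentage points. The AT-AC pair on chromosome 3 (194369534 and 194369483), an intron type removed by the minor spliceosome, had 97.4% ± 1.49 in wild type and 96.4% ± 2.29 in S34F (edgeR adjusted p = 0.649).

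Some frame-preserving pairs shared a 5′ splice site or both acceptors, so they are not independent of each other. On chromosome 19, the 5′ splice site at 652232 had its mean upstream share go from 7.3% to 1.34% in the pair 651916 and 651856. That pair met the minimum of 10 reads at its upstream acceptor only through wild type, so its values are a description. In the next pair, 651856 and 651823, the share went from 98.6% to 99.1% (edgeR adjusted p = 0.879). Neither reached a difference of 10 percentage points. On chromosome 1, the 5′ splice site at 26153318 had from 94.9% to 92.5% (edgeR adjusted p = 0.693) at 26155999 and 26156035, and from 93.97% to 83.2% (edgeR adjusted p = 0.342) at 26156108 and 26156177, which lie farther on. Acceptors 68355394 and 68355412 on chromosome 11 were reached from a pair of 5′ splice sites, and their upstream share went from 92.7% to 88.9% (edgeR adjusted p = 0.673) from one and from 88.8% to 78.6% (edgeR adjusted p = 0.102) from the other. For acceptors 2256031 and 2256061 on chromosome 16 the share was higher in S34F from both, from 83.3% to 89.6% (edgeR adjusted p = 0.384) and from 91.1% to 96.4% (edgeR adjusted p = 0.251). None of these 4 examples, chosen after their values were seen, was called.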
